A study of Homo sapiens with 4 samples.

Results

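The genes described are 60 human genes of cell division and DNA replication. Among them are numbered cyclins, cyclin-dependent kinases (CDKs), E2F transcription factors and the pocket proteins RB1, RBL1 and RBL2. The rest are the origin recognition proteins, the MCM proteins, CDC6, CDT1 and CDC45, together called replication factors here. MCM proteins were taken by symbol and not by role, so MCM8 and MCM9 are included. The 60 genes were taken by symbol, with or without a summit, out of 19974 protein-coding genes on chromosomes 1 to 22 and X. The choice was made with earlier results of these data known. CCND1, CDK4 and CDK6 were left out by the same rule. Binding of TBX3, a T-box transcription factor carrying a 3xHA peptide tag, was mapped by chromatin immunoprecipitation and sequencing (ChIP-seq) in 501mel, an established human melanoma cell line. The series holds 2 samples precipitated with an antibody against the tag (HA, clone 12CA5) and 2 input samples, all from the same line and with no other treatment in the labels. Only the 2 ChIP samples had a peak list here, so the inputs give no background level and no comparison between conditions was possible. The labels do not say whether the 2 ChIP samples came from separate cultures. TBX3 was seen through its tag in 1 cell line, and the labels do not say how the tagged protein was expressed or at what level.

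Cyclins switch on their partner CDKs in turn through the cell cycle. CDKs that phosphorylate the pocket proteins free the E2F factors, which then switch on genes for S phase, among them the origin recognition complex (ORC), CDC6, CDT1 and the MCM helicase that opens DNA at origins. In other work TBX3 is known chiefly as a repressor, and its best studied targets in cell division are genes for CDK inhibitors rather than the genes for the kinases themselves.

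A summit is the single base at which a deposited peak is highest. Summits of the 2 lists that were each other's nearest and lay within 200 bp are called a pair. Each summit carries the gene whose transcription start site (TSS) is nearest, and a gene is said here to be named by it. By this measure 2 of the 60 genes had a pair within 10 kb of a TSS, CDK15 and CDK17, both of them CDKs outside the core cell cycle set. The sequences at these 2 starts are shown because no other member was named by a pair so near. They are RefSeq promoter sequence of GRCh38.p14, the same assembly as hg38, printed 5′ to 3′ on the strand of the gene. Capitals mark a match to any of the motifs listed further on. The first is the sequence just upstream of the outermost CDK15 start, at chr2:201806179-201806428 on the plus strand. The second holds 30 bases beside the CDK15 summits, at chr2:201806533-201806562 on the plus strand. The third lies upstream of the outermost CDK17 start that the deposited distances imply, at chr12:96400590-96400689 on the minus strand.
CDK15 upstream: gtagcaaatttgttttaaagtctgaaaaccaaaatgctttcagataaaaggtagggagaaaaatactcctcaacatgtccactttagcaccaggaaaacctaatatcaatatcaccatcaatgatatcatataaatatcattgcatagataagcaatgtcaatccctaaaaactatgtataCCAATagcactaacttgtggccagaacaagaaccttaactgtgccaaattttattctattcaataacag
CDK15 summit: aggcagagccatCATGTGagtcatatgaaa
CDK17 upstream: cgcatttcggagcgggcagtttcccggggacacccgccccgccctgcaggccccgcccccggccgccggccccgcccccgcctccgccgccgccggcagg

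G and C made up 32.4% of the 250 bases upstream of CDK15, 43.3% of the 30 bases beside its summits and 85.0% of the 100 bases upstream of CDK17, which are stretches of unequal length and position. Beside the CDK15 summits the capitals mark CATGTG, an E-box, at 201806545 to 201806550. Its last base lay 31 bp before the replicate 1 summit and 10 bp before the replicate 2 summit. This is a match of letters and not a measured contact.

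The share of 2 in 60 is 3.33% (95% Wilson interval 0.919% to 11.4%), and 10.1% of all 19974 protein-coding genes had such a pair, a value inside that interval. The count depends on which gene a summit is named to. By the start sites of the RefSeq promoter table, 5 of the 53 members in that table had a pair within 10 kb (9.43%), against 12.8% of its protein-coding genes. E2F5 and CDK2 are not in that table and so could not enter the 5. They had pairs 117 bp and 1500 bp outside the lower-coordinate end of the gene, named to neighbours. At any distance, 12 of the 60 genes were named by a pair (20.0%, interval 11.8% to 31.8%), against 28.6% of protein-coding genes. These shares are descriptions, and no test of the list was made. Intervals cover counting error only. The 12 genes were CCNG1, CCNL1, CDK13, CDK15, CDK17, E2F3, E2F6, E2F7, E2F8, RBL1, MCM3 and MCM5. Together they held 33 of the 22702 pairs of the series, of which 13 lay at CDK15 and CDK17. A further 10 genes had summits in 1 list or in both but no pair, and 38 had none in either list. For these last counts no share of all protein-coding genes was taken, so they are not read as a trait of the members.

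**Figure D1:**
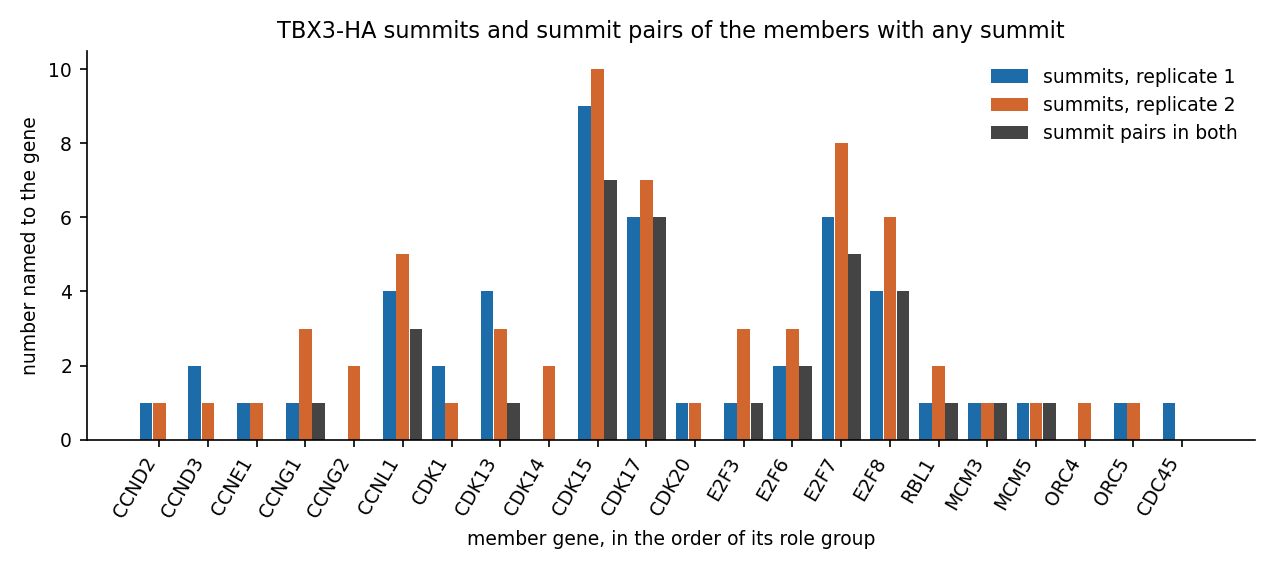
Number of TBX3-HA summits named to each gene in replicate 1 and replicate 2, and number of summit pairs found in both, for the 22 genes with any summit, ordered by role. CDK15 has 9 summits in replicate 1, 10 in replicate 2 and 7 pairs, the most of any member, and the replication factors at the right have 1 pair at most.

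The lists were of unequal length. Replicate 1 held 32479 peaks and replicate 2 held 40494, and the members took 49 and 63 of them. Of the members' summits 67.3% in replicate 1 and 52.4% in replicate 2 were in a pair, beside 69.9% and 56.1% of all peaks. The number of reads behind each list is unknown. The peak score is the authors' own value for each peak and is compared only within a list, where rank 1 is the highest.

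Among the 14 cyclins, 2 were named by pairs, CCNG1 and CCNL1, and neither by a pair within 10 kb. CCNL1 encodes cyclin L, which partners CDKs in RNA splicing, and had 3 pairs on chromosome 3, all upstream. The strongest had summits at 157282639 and 157282649, 121879 bp upstream of the TSS, in intron 12 of 13 of VEPH1. It scored 75.2 in replicate 1 (rank 2972) and 165.4 in replicate 2 (rank 1728), which is the lowest rank sum of any pair named to a member. A second CCNL1 pair, 88100 bp upstream in intergenic sequence, scored 35.2 and 36.4, and the third, also within VEPH1, scored 6.43 and 7.62. The 3 pairs thus ran from percentiles of 23.1 and 28.7 to percentiles of 90.8 and 95.7 in replicates 1 and 2.

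CCNG1, a cyclin induced by p53, was named by 1 pair with summits at 162769617 and 162769593 on chromosome 5. It lay 667954 bp upstream of the TSS in intergenic sequence, the longest distance of the 33, and scored 41.7 (rank 5764) and 90.4 (rank 3941). Among the members, which leave out CCND1, the cyclins that drive entry into S phase and mitosis were not named by a pair. That is the common state, since 28.6% of protein-coding genes were named by one, so it is not read as a trait of these cyclins. CCND3 had a pair 17672 bp from a start of the RefSeq promoter table that did not carry its name. CCND2, CCND3, CCNE1 and CCNG2 had unpaired summits, and CCNA1, CCNA2, CCNB1, CCNB2, CCNB3, CCNE2, CCNI2 and CCNL2 had no summit.

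Of the 17 CDKs, 3 were named by pairs, and CDK15 and CDK17 held 13 of their 14. CDK15 belongs to the PFTAIRE branch of the family and is little studied. Its 7 pairs all lay within its own gene, which spans 201806429 to 201895550 on chromosome 2. The promoter pair had summits at 201806581 and 201806560, 2 bp downstream and 19 bp upstream of a TSS, and scored 11.6 in replicate 1 (rank 17029) and 20.2 in replicate 2 (rank 15532). That placed it at percentiles of 46.6 in replicate 1 and 61.2 in replicate 2, so it was a middling peak in both.

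The higher CDK15 scores were inside the gene. In intron 10 of 13, summits at 201859040 and 201859029 scored 73.2 (rank 3096) and 148.4 (rank 2020). In intron 7, summits at 201834003 and 201834002 scored 65.2 (rank 3547) and 77.2 (rank 4729). Both pairs stood above the promoter pair in each list.

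The last 4 CDK15 pairs fell within 11.2 kb in introns 12 and 13. The one in intron 13 scored 24.0 and 45.3, and the 3 in intron 12 scored between 8.57 and 15.8 in replicate 1 and between 18.9 and 25 in replicate 2. Replicate 1 had 2 unpaired summits in this gene and replicate 2 had 3, one of them 1044 bp downstream of a TSS.

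CDK17, a PCTAIRE kinase expressed mainly in neurons, had 6 pairs on chromosome 12, 3 within the gene and 3 upstream of it. The pair nearest its TSS had summits at 96400377 and 96400339, in the 5′ untranslated region (exon 1 of 16), 211 bp and 249 bp downstream of the deposited TSS. From the single start of the RefSeq promoter table the same summits lay 62 bp and 100 bp downstream. The pair scored 75.7 in replicate 1 (rank 2963) and 96.0 in replicate 2 (rank 3679). It stood at a percentile of 90.9 in both lists, unlike the promoter pair of CDK15.

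The other CDK17 pairs flanked the start on both sides. Upstream, at 26899, 33759 and 42539 bp, the replicate 1 scores were 38.4, 54.3 and 5.76 and the replicate 2 scores were 78.5, 91.8 and 20.2. In intron 1 of 16, a pair 32135 bp downstream had both summits at 96368453 and scored 37.3 and 78.5. The second intronic pair, in an Alu element, scored 6.43 and 18.3. Of the 6 pairs, 4 were high in both lists and 2 were low in replicate 1 and near the middle of replicate 2.

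**Figure D2:**
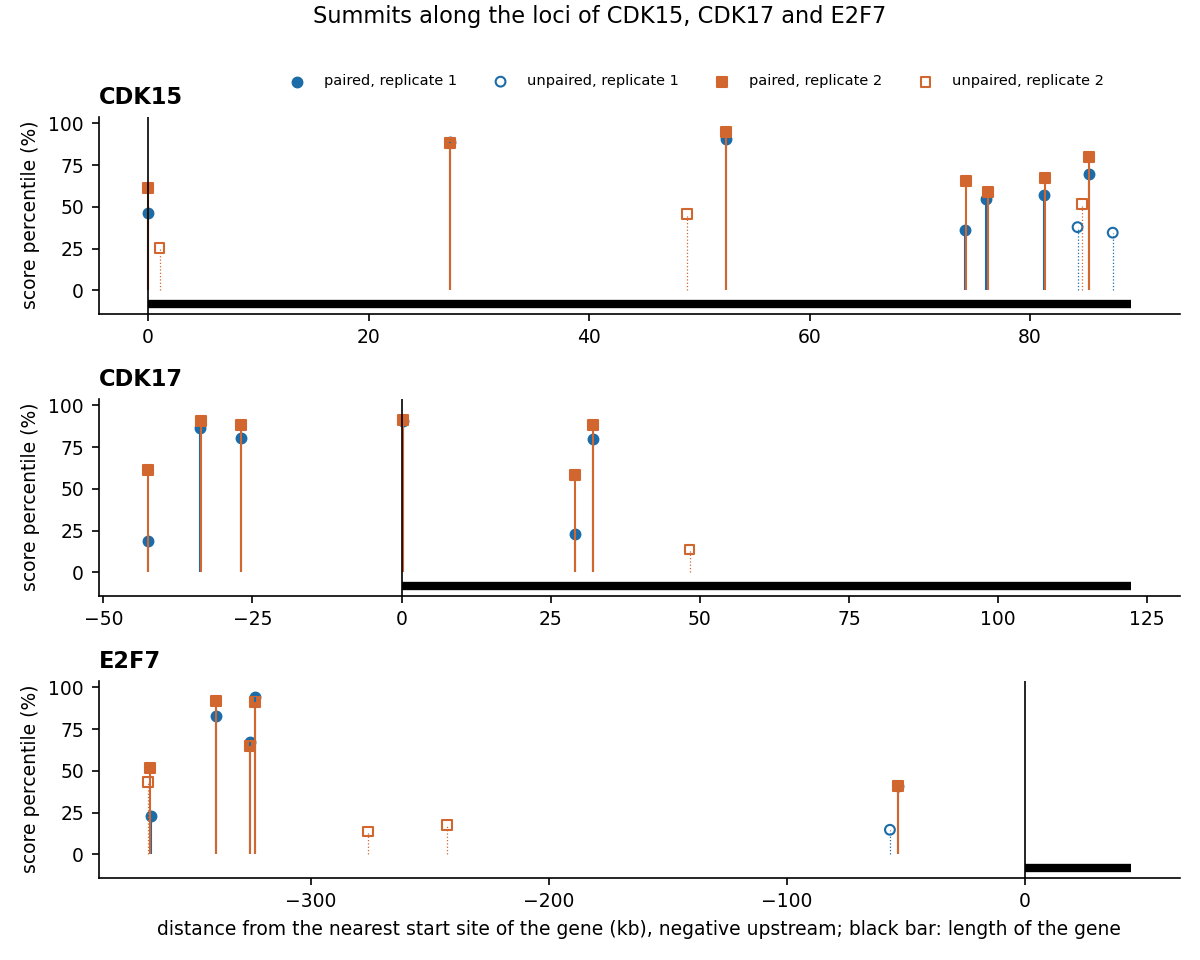
Score percentile within its own list of every summit named to CDK15, CDK17 and E2F7 (y axis) against the distance from the nearest start site of the gene in kb (x axis), with filled symbols for paired and open symbols for unpaired summits, circles for replicate 1 and squares for replicate 2. All 7 CDK15 pairs lie inside the gene (black bar), CDK17 has 3 pairs upstream and 3 at or downstream of its start, and all 5 E2F7 pairs lie upstream, 4 of them in the cluster at the far left.

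CDK13, which with cyclin K phosphorylates RNA polymerase II, was named by 1 weak pair in an LTR element 55582 bp upstream, with scores of 3.91 and 3.75 (ranks 29773 and 37288). Its summits were 137 bp apart, and pairing within 100 bp would leave it out. CDK1, the mitotic kinase, CDK14 and CDK20 had unpaired summits only. No summit named CDK2, CDK3, CDK5, CDK7, CDK8, CDK9, CDK10, CDK12, CDK16, CDK18 or CDK19.

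Of the 8 E2F factors, 4 were named by pairs, 12 in all. None of these 12 lay within 10 kb of a TSS. The pair 117 bp outside E2F5 was named to a neighbour and is not among them. E2F7 and E2F8, the atypical E2Fs, which repress and act without a dimer partner of the DP family, held 9 of the 12. All 9 were upstream of their gene.

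E2F7 had 5 pairs on chromosome 12, of which 4 lay 323188 to 367211 bp upstream within a stretch of 44.0 kb. The strongest, with summits at 77388768 and 77388791, scored 104.4 in replicate 1 (rank 1883) and 99.9 in replicate 2 (rank 3496). Another, with summits at 77405251 and 77405303 in an LTR element of the MaLR family, scored 42.8 (rank 5607) and 106.8 (rank 3180). The remaining 2 of this stretch scored 22.1 and 6.43 in replicate 1 and 23 and 14.8 in replicate 2. The pair nearest to the gene, 53386 bp upstream, scored 10.0 and 10.6, below the median of each list.

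E2F8 had 4 pairs on chromosome 11 within 26.3 kb, from 11677 to 38018 bp upstream. The one nearest the gene was also the strongest, with summits at 19253332 and 19253311 and scores of 30.5 (rank 7906) and 55.9 (rank 6698). The next, 17113 bp upstream, scored 20.1 and 40.8. The 2 farthest each scored 7.82 in replicate 1, and 5.55 and 20.2 in replicate 2, so their order could not be told from replicate 1.

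E2F3, an activator, had 1 named pair 35297 bp upstream on chromosome 6, with summits at 20366609 and 20366637 in a LINE fragment. It scored 47.4 (rank 5048) and 126.5 (rank 2544). E2F6, a repressor that lacks the pocket protein contact, had a pair on either side of the gene. The upstream one, at 32610 bp with summits at 11498787 and 11498768 on chromosome 2, scored 24.9 (rank 9639) and 57.6 (rank 6467). The downstream one scored 3.34 and 3.11, the weakest of the 33 pairs in both replicates. Its summits were 152 bp apart, and pairing within 100 bp or keeping only scores at or above the median would leave E2F6 with 1 pair. E2F1, E2F2, E2F4 and E2F5 had no summit named to them.

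Of the pocket proteins, which hold E2F factors inactive, RBL1 (p107) had 1 pair and RB1 and RBL2 had no summit. The RBL1 pair lay in intron 2 of 20, 24473 bp downstream of a TSS on chromosome 20, with summits at 37071742 and 37071785 in an MSTB element of the MaLR family. It scored 9.91 in replicate 1 (rank 19580) and 24.0 in replicate 2 (rank 13668), which is below the median peak of its list in the first and above it in the second.

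The 18 replication factors had 2 pairs between them, both at subunits of the MCM helicase. MCM3 was named by a pair 27781 bp upstream on chromosome 6, with summits at 52312662 and 52312698, scores of 55.5 and 82.4, and ranks of 4256 and 4398. MCM5 was named by a pair on chromosome 22 with summits at 35426644 and 35426676, scores of 30.2 and 45.8, and ranks of 7940 and 8015. The deposited annotation calls the MCM5 pair intergenic and 26521 bp downstream of the TSS, whereas it falls inside the RefSeq span of the gene, 35400140 to 35455031. Each of the 2 pairs had nearly the same rank in both lists.

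Origin recognition subunits and the loading factors had no pair. ORC4 and ORC5 had unpaired summits, CDC45 had 1 in replicate 1 only, and ORC1, ORC2, ORC3, ORC6, CDC6 and CDT1 had none. Neither had MCM2, MCM4, MCM6, MCM7, MCM8, MCM9 or MCM10. These counts are of summits named to the gene, and some genes without one held a pair that was named to a neighbour, among them CDK2 and MCM7, which are described further on. Lack of a summit does not show that TBX3 is absent.

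Within the 33 pairs the scores were spread over most of each list. The median percentile was 69.6 in replicate 1 and 78.0 in replicate 2, a mean of 73.8 ± 5.9 (SD, n = 2), against 63.6 and 70.5 for all 22702 pairs. This SD is between the 2 list medians of the same 33 pairs. All pairs differ between the lists in the same direction, so it is not a spread between pairs. The lowest and highest percentiles were 3.79 and 94.2 in replicate 1 and 3.47 and 95.7 in replicate 2. Of the 33, 4 were above the 90th percentile in both lists at once, beside 12.4% of all pairs. Taken singly, replicate 1 had 12.1% of the 33 above it, against 14.1% of all pairs. Replicate 2 had 24.2%, against 17.6%. The percentile was higher in replicate 2 at 27 of the 33 pairs (81.8%), as it was at 67.0% of all pairs.

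**Figure D3:**
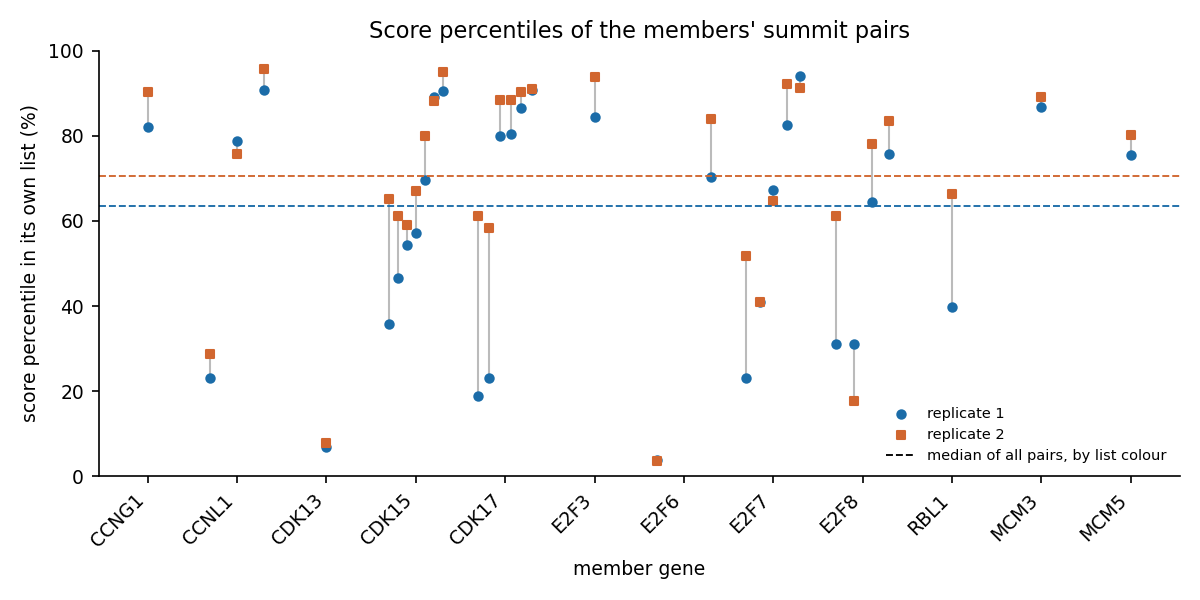
Score percentile within its own list of each of the 33 pairs (y axis) by gene (x axis), with a circle for replicate 1, a square for replicate 2 and a grey line joining the 2 summits of a pair. Dashed lines mark the medians of all pairs, 63.6 in replicate 1 and 70.5 in replicate 2, and members lie on both sides of them.

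The members' pairs lay most often between 10 and 50 kb from a TSS. CDK15 and CDK17 held 13 of the 33 (39.4%), so the shares below rest in large part on these genes. Pairs of the same gene are not independent, and the shares are not read as a trait of the members. Within 10 kb of a TSS were 6.06% of the 33, against 16.9% of all pairs, and between 10 and 50 kb 48.5%, against 32.7%. Beyond 100 kb were 21.2%, against 34.9%, and the median distance was 38018 bp, against 51090 bp for all pairs. Intergenic sequence held 20 of the 33 (60.6%, against 53.7% of all pairs) and introns 11 (33.3%, against 40.1%). Annotated repeats held 9 (27.3%, against 41.7%), of which 4 were LTR elements (12.1%, against 10.6%). None was in satellite repeats, which held 16.6% of all pairs. The summits of a pair lay a median of 30 bp apart, close to the 28 bp of all pairs.

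A gene can also hold a pair that the annotation gives to a neighbour with a nearer TSS. Counting instead every pair within a gene's RefSeq span or 10 kb on either side, 15 of the 60 genes had one (25%, interval 15.8% to 37.2%), against 28.6% of protein-coding genes. In 11 of these 15, all such pairs were named to another gene. There were 13 pairs of this kind, of which 4 stood above the 90th percentile in both lists. Of all pairs 12.4% did so, a lower share. By at least one of the 2 rules, naming at any distance or position in or near the gene, 21 of the 60 genes had a pair (35%, interval 24.2% to 47.6%), close to the 36.7% of protein-coding genes.

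The strongest of these pairs lay inside E2F3, CDK14 and CDK2. In intron 1 of 6 of E2F3, summits at 20479674 and 20479622 had ranks of 280 in replicate 1 and 330 in replicate 2, far above the pair that carries the name of E2F3. They were given to CDKAL1, whose TSS is 54783 bp away, while the nearest E2F3 start is 76060 bp away. In intron 11 of 13 of CDK14, a kinase activated by cyclin Y at the plasma membrane, summits at 91084486 and 91084470 on chromosome 7 had ranks of 764 and 565 and were given to FZD1, 179982 bp away. These sites within member genes ranked above every pair that carries a member's name.

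CDK2, the partner of cyclins E and A, lies next to PMEL, which encodes the fibril protein of the melanosome. Inside CDK2, in intron 5 of 6, summits at 55970825 and 55970783 on chromosome 12 had ranks of 823 and 1073 and were given to RAB5B, 3088 bp from its TSS. A pair in intron 1 of 10 of PMEL lay 1500 bp outside the CDK2 span and 732 bp from the TSS of PMEL, with ranks of 20775 and 13620. Another, in exon 7 of 12 of PMEL, had ranks of 15533 and 29725. The site within CDK2 therefore ranked far above the 2 at PMEL in both lists.

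CDK13 had a pair in intron 7 of 13, with summits at 40057451 and 40057444 and ranks of 2660 and 4172, named to MPLKIP. ORC1, the largest subunit of the recognition complex, had one 3718 bp beyond its end away from the start, with summits at 52369111 and 52369115 on chromosome 1 and ranks of 3171 and 2200, named to CC2D1B. Near CDK5, which acts in neurons with the non-cyclin partner p35, summits at 151060662 and 151060651 lay 2765 bp from its start, in intron 1 of 22 of SLC4A2, with ranks of 4322 and 3040. The lowest percentile among these 3 pairs was 86.7, at CDK5 in replicate 1.

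The pairs at the remaining 5 members were lower or less even between the lists. At ORC3 a pair 2718 bp past the gene, in AKIRIN2, had ranks of 5187 and 11115. At E2F5 on chromosome 8, a pair 117 bp outside the gene fell in the promoter of the divergent transcript LOC102723322, 4 bp from its TSS, with ranks of 13021 and 24516. At MCM7 a pair inside the gene was named to MIR25, a microRNA gene that lies within MCM7, and had ranks of 10472 and 17818. Those at MCM8 (9411 bp past the gene, in CRLS1) and MCM2 (7279 bp from its start, in the promoter of TPRA1) had ranks of 11658 and 18529 and of 21811 and 17110. Of all 13 pairs, 9 lay within 10 kb of the TSS of the gene they were named to.

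**Figure D4:**
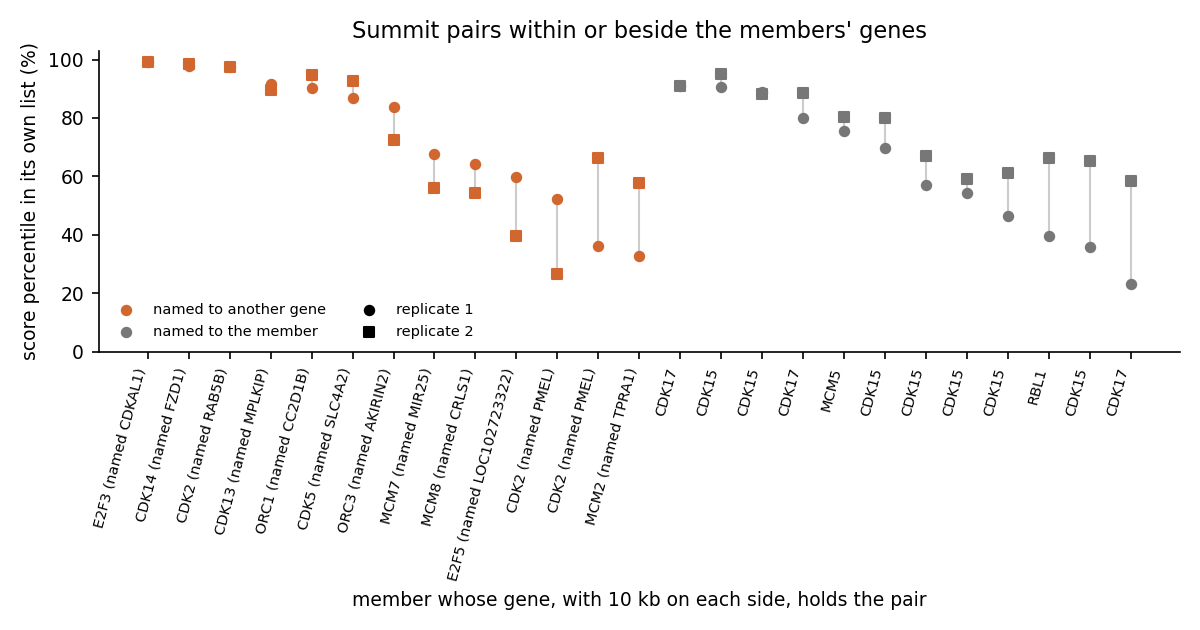
Score percentile within its own list (y axis) of every pair inside a member or within 10 kb of it, with circles for replicate 1 and squares for replicate 2. Orange marks the 13 pairs named to another gene, given in brackets, with E2F3, CDK14 and CDK2 highest, and grey marks pairs named to the member itself.

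Distances were also taken from the start sites of the RefSeq promoter table, which matched 53 of the 60 genes. It has no entry for CCND2, CCNE2, CDK2, E2F5, E2F8, MCM4 and MCM5. Of the 53, 5 had a pair within 10 kb of a start (9.43%, interval 4.10% to 20.3%), namely CDK15, CDK17, CDK5, MCM2 and MCM7, against 12.8% of 15813 protein-coding genes in that table. Within 50 kb the shares were 30.2% and 41.6%. The median distance from start to nearest pair was 77.1 kb in the members (quartiles 35.3 and 187 kb) and 65.6 kb in the protein-coding genes (24.4 and 144 kb).

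**Figure D5:**
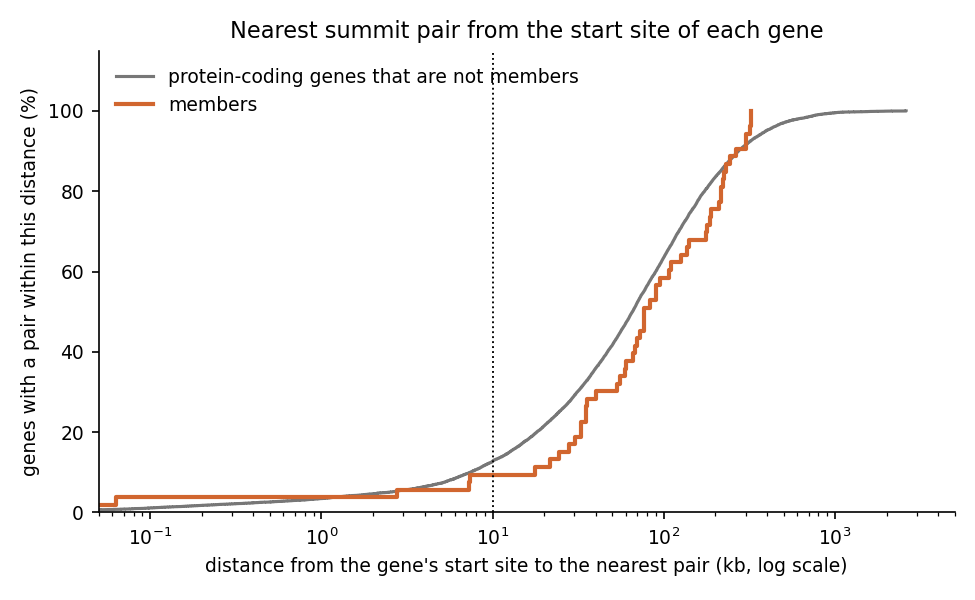
Cumulative percentage of genes (y axis) whose start site has a summit pair within a given distance (x axis, kb, log scale), for the 53 members in the promoter table (orange) and the other protein-coding genes in it (grey), with a dotted line at 10 kb. The members' line lies below the other between 10 and 100 kb, with 9.43% against 12.8% of all protein-coding genes at 10 kb.

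Gene length moved with the presence of a pair, in the list as in the genome. Members with a named pair had a median span of 49606 bp and those without one 21963 bp. Among all protein-coding genes the medians were 53785 and 18073 bp. Member spans held 4.97 pairs per Mb and protein-coding spans 7.35, and 10 of the 17 pairs within member spans were in CDK15 and CDK17. The part of gene length in the counts was not tested.

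Promoter sequence was searched for short motifs on both strands, in 73 windows of 250 bases before to 50 bases after a start for 53 members, and in 34961 windows of the same length for all genes of the table. Windows of 1 gene can overlap. The T-box sequence AGGTGTGA had no match in the members' windows, and 0.984% of all windows held it. Its core GGTGTG, which the longer sequence contains, was in 13.7% of the members' windows and in 16.8% of all windows, and none of the windows of CDK15 or CDK17 had it. The CDK17 window ends before the summits, which lie 62 bp and 100 bp downstream of its start, so the sequence under them was not searched. CATGTG, the E-box printed in capitals for CDK15, was in 6.85% of the members' windows and in 11.1% of all windows.

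Motifs known from promoters of cell cycle genes were counted in the same windows, with no test of enrichment. Either of the E2F sequences TTTCGCGC and TTTGGCGC was in 16.4% of the members' windows, against 1.15% of all windows, and in 11 genes, CDC6, CDK1, CDK10, E2F1, E2F2, MCM2, MCM3, MCM6, MCM7, MCM8 and RBL1. None of these 11 genes was named by a pair within 10 kb, but MCM2 and MCM7 had one 7279 bp and 7417 bp from a start that was named to a neighbour. MCM3 and RBL1 were named by a pair at a greater distance. CCAAT was in 49.3% against 34.6%, the E-box CACGTG in 13.7% against 7.27%, and TTTGAA, the core of the cell cycle gene homology region, in 8.22% against 15.2%.

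Another 67 genes of cell division and replication, which the symbol rule does not take, were counted in the same way. Of these, 6 had a named pair within 10 kb (8.96%, interval 4.17% to 18.2%) and 15 at any distance (22.4%, 14.1% to 33.7%), beside the 10.1% and 28.6% of protein-coding genes. By promoter-table starts the first count was 12 of 59 (20.3%, interval 12% to 32.3%), beside 12.8% of protein-coding genes. The share lay below the background by naming and above it by promoter-table starts, with the background inside the interval each time. The rules also differ in the genes they cover. Those of the 67 genes named by a near pair were CCNY, CDC25B, LIG1, LIN54, POLE and PRIM2. CDC25B, a phosphatase that activates CDKs, had its pair in the promoter 100 bp from a TSS, with scores of 14.8 and 16.3. POLE, the catalytic subunit of the leading strand polymerase, had one 113 bp from a TSS, with scores of 22.3 and 29.5. LIN54, the DNA-binding subunit of the MuvB complex, which represses cell cycle genes in quiescence, had one 128 bp from a TSS, with scores of 18.9 and 38.5. Their ranks ran from 10463 to 14732 in replicate 1 and from 9433 to 18413 in replicate 2, so all 3 were far below the strongest peaks of either list.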

How the data were processed

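Peaks were called per sample, not pooled, and annotated with annotatePeaks.pl of HOMER against hg38, per the file headers. The submitters' processing notes name FastQC 0.11.7, cutadapt 2.8, Bowtie2 2.3.5, MACS2 2.1.2 and SAMtools 1.9, with no roles. Control and threshold of the peak calls are not given in the sources used here. Per the file headers, the authors' score has no stated scale. Depth is unknown. The inputs were not analysed here.

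Genes were matched to the RefSeq table of GRCh38.p14, and background counts used its gene identifiers. Gene and distance came from replicate 1. Pairing was run on simulated summits with known partners. The partners lay closer than the pairing limit and the other summits far apart, so this checks the code and not dense real lists. Ranks give ties the lowest rank, and percentiles give them the mean. The members, lists and tests were chosen with earlier results of these data known. All members with a pair within 10 kb, the 10 with the lowest rank sum and the 3 with most pairs were to be described in full, and the others by group. The pairs named to neighbouring genes were singled out after their values were seen. Python 3.11.15, pandas 2.3.3 and numpy 2.4.6 were used.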

Additional observations from a re-analysis of the deposited data

How the results depend on the processing

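Of 36 alternatives to the counts and the median percentile, 23 stayed within 1.5 times the count or 1 SD of the median. That SD is the one between the 2 list medians. Some of the 23 could not move. All 33 pairs carry the same gene in both lists, so gene and distance from replicate 2 or from both lists had to return the same counts. Limits of 1 kb and 5 kb could not change the near count either, because both near pairs lay within 249 bp of a TSS. Nor could pairing within 50 or 100 bp, since a tighter limit only removes pairs and these 2 had gaps of 21 and 38 bp. The alternatives with the same base or the promoter table were chosen after seeing the data. The number of members with a pair within 10 kb was 1 (CDK17) for scores at or above the median, 0 at the same base, 8 within 50 kb, 5 by promoter-table starts and 15 by gene span plus 10 kb. At any distance it was 1 at the same base and 28 by gene span plus 50 kb. Pairs named to members fell to 21 for scores at or above the median. The median percentile was 65.7 when summits were paired within 500 bp, which added CCNE1, CDK1 and CDK20. Apart from promoter-table starts and gene span plus 10 kb, all alternative settings here were counted in the members only, without a share of all protein-coding genes. With a single list the ranges were 3 to 6 members within 10 kb, 19 to 21 at any distance and 49 to 63 summits. The cause was not tested where the setting itself does not give it. Pair counts of CDK15, CDK17, MCM3 and MCM5 stayed within 1.5 times under all 8 alternatives run for each. Among the 8, naming from replicate 2 or from both lists could not change them. For MCM3 and MCM5, with gaps of 36 and 32 bp, pairing within 50 or 100 bp could not either. No paired analysis was possible because the inputs had no peak list here and no test was made. Without reads, depth sets an unknown limit.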

Other observations

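Summits of a single list lay within 10 kb of the TSS of some members, and they are given as values. CCND2, a D-type cyclin, had one in replicate 2, 1029 bp upstream with a score of 16.5, a percentile of 54.6. E2F6 had one in replicate 2, 7809 bp downstream with a score of 5.55. CDK14 had one in replicate 2, 9087 bp upstream with a score of 6.22. CDK20 had summits in both lists, 9782 and 9505 bp upstream, both annotated as LTR14, with scores of 3.91 and 5.55, which lay too far apart to be paired within 200 bp. Unpaired member summits numbered 16 in replicate 1 and 30 in replicate 2, at median percentiles of 17.7 and 21.4. CDC45, with a score of 24.0 in replicate 1 and no summit in replicate 2, stood highest among those of replicate 1.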
